A study of Rattus norvegicus with 18 samples.

Results

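Collagen chains were followed in the livers of 18 male Wistar rats, as the genes whose symbol is Col, a type number, the letter a and a chain number. The count tables held 45 such rows among 32623 genes, of which 44 are collagen chain genes. The other row, Col4a3bp, encodes a ceramide transfer protein and was left out of every class. Of the 44 rows, 28 reached at least 10 rounded counts in 6 or more libraries and were judged, and 16 did not. Col1a2 and Col21a1 were not analysed here, so totals and shares of collagen reads cover the judged chains alone. The judged chains comprised 7 fibrillar, 5 basement membrane, 3 network, 4 FACIT, 5 beaded filament, 2 multiplexin and 2 transmembrane chains.

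Each of the 3 groups held 6 rats with 1 library per rat. Control rats received chow and normal water for 12 weeks. NASH rats inhaled CCl4, a liver toxin, with phenobarbital in the drinking water for 6 weeks and then ate the high-fat, high-cholesterol diet (HFCD) for 4 weeks. In NASH-CH, the cirrhosis model, 8 weeks of CCl4 and phenobarbital were followed by 16 weeks in which the HFCD was given together with both agents. Agent, diet and duration therefore changed together, and no control group was matched to the 10 or 24 weeks of the models. The ages of the rats are not given in the sources used here.

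A collagen molecule is a trimer of alpha chains, and each chain has its own gene. Fibrillar collagens (types I, III, V and XI, among others) form the cable-like fibrils of scar tissue. Type IV forms the sheet of basement membranes, and types VIII and X form hexagonal networks. FACIT collagens sit on the surface of fibrils, type VI forms beaded microfilaments around cells, and multiplexins (types XV and XVIII) lie in basement membrane zones. In the fibrotic liver, stellate cells and portal fibroblasts are the known main sources of fibrillar collagen. The sequenced RNA came from whole liver tissue, so fewer cells of a type and less RNA per cell cannot be told apart.

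Upstream sequences are shown for a few of the chain genes, with the letters of a searched motif in capitals on either strand. Col4a1 and Col4a2 are shown because they start head to head and the ratio of their levels varied little, Col8a1 because it was the chain called in NASH, and Col15a1 and Col11a1 because they had the largest fold changes. Col15a1 and Col11a1 were judged only through their NASH-CH level, so their fold changes are a description. The RefSeq table gives them on GRCr8, another build than that of the counts, on the plus strand for the stretch between Col4a2 and Col4a1 at chr16:84885521-84885596 (76 bases). The 250 bases before the start of each other gene are at chr11:56246532-56246781 for Col8a1, chr5:66297296-66297545 for Col15a1 and chr2:204508886-204509135 for Col11a1, each on the plus strand.
Col4a2/Col4a1 between the starts: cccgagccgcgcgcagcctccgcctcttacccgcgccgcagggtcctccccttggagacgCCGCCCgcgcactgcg
Col8a1 upstream: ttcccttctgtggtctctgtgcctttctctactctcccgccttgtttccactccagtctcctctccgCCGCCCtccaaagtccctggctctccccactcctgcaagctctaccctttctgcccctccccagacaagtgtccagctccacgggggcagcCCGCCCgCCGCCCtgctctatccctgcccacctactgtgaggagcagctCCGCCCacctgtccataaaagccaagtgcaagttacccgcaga
Col15a1 upstream: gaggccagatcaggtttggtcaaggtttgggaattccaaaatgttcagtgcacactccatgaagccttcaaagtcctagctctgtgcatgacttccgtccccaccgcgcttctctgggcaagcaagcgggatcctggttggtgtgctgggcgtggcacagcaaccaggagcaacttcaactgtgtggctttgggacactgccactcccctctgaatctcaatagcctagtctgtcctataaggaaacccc
Col11a1 upstream: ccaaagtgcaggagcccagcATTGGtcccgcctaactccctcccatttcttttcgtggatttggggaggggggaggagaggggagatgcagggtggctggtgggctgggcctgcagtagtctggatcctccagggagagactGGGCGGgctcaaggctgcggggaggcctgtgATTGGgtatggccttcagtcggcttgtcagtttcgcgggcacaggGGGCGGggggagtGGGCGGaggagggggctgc
The GC box was searched as GGGCGG on both strands. The CCAAT box was searched by its own letters, and the TATA box as TATAAA, likewise on both strands. No 2 of these motifs overlapped in the printed windows. The Col4a2/Col4a1 stretch held 1 GC box, the Col8a1 window 4, and the Col11a1 window 3 together with 2 CCAAT boxes. The Col15a1 window held 0 of any of them. RefSeq promoter windows (250 bases before and 50 after the start) were found for 21 of the 28 judged chains. Motifs were counted only in the 250 bases before the start. A GC box lay in this part of 13 of the 21 windows, against 32.4% of all 27457 promoter windows. The CCAAT box lay in 6 of 21, against 34.3%, and the TATA box in 2 of 21, against 13.1%. The searched parts of Col4a1 and Col4a2 share the 76 bases between their starts, and those of Col4a3 and Col4a4 share 88. So 1 motif can count for both genes of a pair.

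Library totals ran from 19498516 to 29491895 counts in control and NASH rats and from 44680345 to 60117806 in NASH-CH rats, so sequencing depth and the NASH-CH group cannot be told apart. Levels are given in CPM, counts scaled to a common library size by the TMM method. They are not corrected for transcript length and are compared between rats, not between chains. NASH-CH rat 5 stood apart. It had the highest level among all 18 rats for 12 of the 28 chains. Its summed level of 5 cholangiocyte markers was 45.3 CPM, against 4.87 to 13.1 in the other NASH-CH rats, and its sum of 3 mesothelial markers was 14.1 CPM, against 0.96 to 2.56. Nearly all of this mesothelial sum was Msln, which reached 13.3 CPM. The other 2 markers, Upk3b and Wt1, had at most 0.3 and 0.698 CPM in NASH-CH rats. Its 5 hepatocyte markers had the lowest sum of all rats (74400 CPM). The main NASH-CH values are therefore also given without this rat. The part of these marker differences in the results was not tested.

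The judged chains together took 700 to 1000 CPM in control livers (median 816), 795 to 914 in NASH (855) and 865 to 1270 in NASH-CH (1050). These ranges overlapped. Col18a1 and Col3a1 had the most reads in every group. Multiplexin chains took 42.9% ± 3.19 (SD, n = 6) of collagen reads in control livers, 45.1% ± 3.66 in NASH and 42.2% ± 4.97 in NASH-CH. Fibrillar chains had 33% ± 1.93, 27.3% ± 2.87 and 31% ± 3.03. Beaded filament chains took 6.69% ± 0.689, 8.14% ± 0.7 and 9.55% ± 1.82.

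In NASH against control, 1 of the 28 judged chains rose and 0 fell by limma-voom at an adjusted p under 0.05. Among all 13265 tested genes, 1.5% were called higher and 1.44% lower. The chain was Col8a1, a short-chain network collagen made by vascular cells. At an unadjusted p under 0.05, 5 chains were higher and 1 lower in NASH, and edgeR and DESeq2 each called 3 higher and 0 lower. In 0 chains did every NASH rat exceed every control rat, against 1.73% of tested genes. The median log2 fold change was 0.24 over the judged chains and 0.01 over all tested genes. By class it was -0.06 for fibrillar, 0.22 for basement membrane, 0.70 for network, 0.13 for FACIT and 0.36 for beaded filament chains. 22 of the 28 log2 fold changes were positive, but the chains vary together within a rat and are not replicates.

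In NASH-CH against control, 12 of the 28 chains rose and 1 fell, where 8.23% of all tested genes were called higher and 8.5% lower. The risers were 3 fibrillar chains (Col1a1, Col5a2, Col11a1), 3 network chains (Col8a1, Col8a2, Col10a1), 2 FACIT chains (Col12a1, Col16a1), 3 beaded filament chains (Col6a1, Col6a2, Col6a3) and the multiplexin Col15a1. The FACIT chain Col22a1 fell, and 0 of the 5 basement membrane chains were called by limma-voom or edgeR, while 3 were higher at an unadjusted p under 0.05 and DESeq2 called Col4a1 and Col4a2. In 5 chains (Col6a2, Col8a2, Col10a1, Col11a1 and Col15a1) every NASH-CH rat exceeded every control rat, against 3.65% of tested genes. Of these 5, Col10a1, Col11a1 and Col15a1 had been judged only through their NASH-CH level, so nothing is read from this count. Among the 20 chains with at least 10 counts in every library it was 1 (Col6a2), against 3.13% of the 11033 genes that met this filter. In 1 chain, Col22a1, every NASH-CH rat lay below every control rat, against 3.41% of tested genes. The median log2 fold change was 0.48 over the judged chains and 0.01 over all tested genes. For the classes it was 0.25 for fibrillar, 0.39 for basement membrane, 1.07 for network, 0.50 for FACIT and 0.74 for beaded filament chains. The network median is the value of Col10a1, which was judged only through its NASH-CH level.

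These counts carry the filter with them. Col11a1 and Col15a1 reached 10 counts in 0 control, 0 NASH and 6 NASH-CH libraries, and Col10a1 and Col25a1 in 0, 2 and 6, so these 4 chains were judged only because of their level in the deeper NASH-CH libraries. Col5a3 reached 10 counts in 1 control, 1 NASH and 4 NASH-CH libraries, Col6a5 in 1, 6 and 3, and Col22a1 in 3, 2 and 2. None of these would have passed the filter without the group of its highest mean. For all the chains named here the fold changes are given as a description. Their tests and lack of overlap support nothing. The class medians of fibrillar, network, FACIT and beaded filament chains include such chains in all 3 comparisons and carry the same limit. Among the 20 chains with at least 10 counts in every library, 8 rose and 0 fell, where 8.76% of the 11033 genes under that filter were called higher and 8.65% lower. Without NASH-CH rat 5, 10 chains rose and 1 fell. Col5a2 (adjusted p = 0.0631, limma) and Col10a1 (adjusted p = 0.0583, limma) were then no longer called, and these calls were lost in 8 and 14 of the 18 fits that left out 1 rat.

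In NASH-CH against NASH, 8 of the 28 chains rose and 0 fell, where 1.79% of all tested genes were called higher and 2.34% lower. These were Col1a1, Col3a1, Col5a2, Col11a1, Col8a2, Col16a1, Col6a2 and Col15a1. In 3 chains (Col8a2, Col11a1 and Col15a1) every NASH-CH rat exceeded every NASH rat, against 1.4% of tested genes. Col11a1 and Col15a1 had been judged only through their NASH-CH level, and among the 20 chains with at least 10 counts in every library the number was 0, against 1.07% of genes. By the test, 5 of those 20 chains rose, where 1.53% of genes did. At an unadjusted p under 0.05, 3 chains were lower in NASH-CH, and edgeR and DESeq2 called 0 lower. The median log2 fold change was 0.21 over the judged chains, 0.54 over the fibrillar chains and 0.01 over all tested genes. The fibrillar median includes Col11a1 and Col5a3, which passed the filter only with NASH-CH. Basement membrane (0.14), network (0.20, the value of Col10a1) and FACIT chains (0.23) had lower medians, and beaded filament chains had 0.44. Several of these calls lay near the threshold. The count was 4 without NASH-CH rat 5, 2 without NASH rat 4 and 1 with the control rats left out of the fit. Among the 18 fits that left out 1 rat, the call was lost in 14 for Col1a1, 14 for Col3a1, 15 for Col5a2, 13 for Col16a1, 7 for Col8a2 and 2 for Col11a1, and in 0 for Col6a2 and Col15a1. Both comparisons with control share the control rats, and both comparisons of NASH-CH share the NASH-CH rats, so the 3 lists are not independent.

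**Figure D1:**
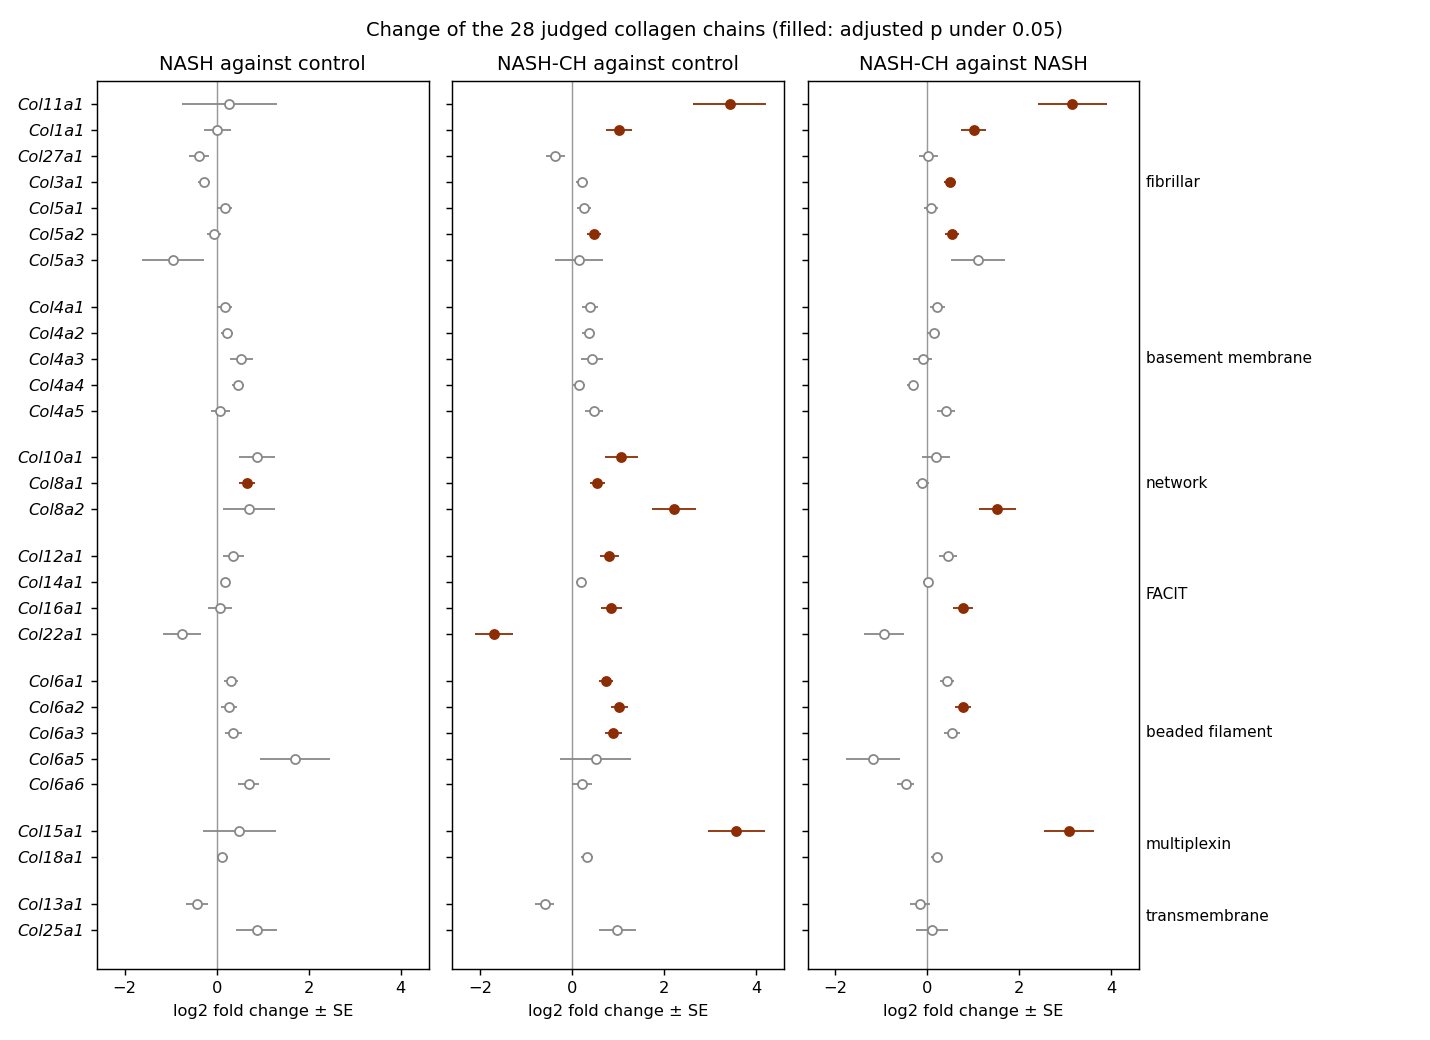
Log2 fold change ± SE of each judged chain (limma-voom, 6 rats per group) in the 3 comparisons, grouped by class, with filled points for an adjusted p under 0.05. 1 chain was called in NASH against control, 13 in NASH-CH against control and 8 in NASH-CH against NASH, and the 5 basement membrane chains are open points in all panels.

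Among the fibrillar chains, Col1a1 (ENSRNOG00000003897) encodes the major chain of type I collagen, the bulk of scar collagen. Its lowest, median and highest levels were 6.47, 8.76 and 10.4 CPM in control, 5.57, 7.86 and 12.3 CPM in NASH and 9.54, 17.1 and 34.2 CPM in NASH-CH rats. The control and NASH ranges overlapped, and 5 of 6 NASH-CH rats exceeded every control rat. Its log2 fold change was 1.02 ± 0.28 (SE) in NASH-CH against control (adjusted p = 0.0186, limma) and 1.01 ± 0.28 against NASH (adjusted p = 0.045, limma). In NASH against control it was 0.01, with a 95% interval from -0.61 to 0.63. With NASH-CH rat 5 left out, the rise over control was 0.82 (adjusted p = 0.027, limma) and the difference from NASH was 0.81 (adjusted p = 0.0677, limma).

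Col3a1 (ENSRNOG00000003357) encodes the chain of type III collagen, which forms thin reticular fibres in normal liver as well as in scars. It ranged from 213 through a median of 225 to 301 CPM in control, from 173 through 184 to 246 CPM in NASH and from 216 through 290 to 329 CPM in NASH-CH rats. The NASH-CH rats lay within or little above the control range. Against control, the log2 fold change was -0.28 ± 0.13 in NASH (adjusted p = 0.219, limma) and 0.21 ± 0.13 in NASH-CH (adjusted p = 0.289, limma). NASH-CH exceeded NASH by 0.49 ± 0.13 (adjusted p = 0.0464, limma). It was 0.44 without NASH-CH rat 5 (adjusted p = 0.0819, limma).

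Type V collagen sits inside type I fibrils and limits their diameter. Col5a2 had 7.42, 9.14 and 10.8 CPM (lowest, median, highest) in control, 7.05, 8.9 and 9.74 CPM in NASH and 8.21, 13.3 and 16.6 CPM in NASH-CH rats. It rose by 0.48 ± 0.15 on the log2 scale over control (adjusted p = 0.0345, limma) and by 0.54 ± 0.15 over NASH (adjusted p = 0.0457, limma). In its partner Col5a1, NASH-CH exceeded control by 0.25 with a 95% interval from -0.06 to 0.57, which was not called. Col5a1 ranged from 11.6 to 19.3 CPM in control and from 14.7 to 26.6 CPM in NASH-CH rats. Col5a3 had 0 to 0.454 CPM in control and NASH rats and 0.147 to 0.969 CPM in NASH-CH rats, where rat 5 was the highest.

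Col11a1 (ENSRNOG00000023148), a chain of the type XI collagen best known from cartilage, was nearly absent outside NASH-CH. Its counts were 0 to 2 per control library, 0 to 5 per NASH library and 15 to 156 per NASH-CH library. In CPM it had 0, 0.0744 and 0.125 (lowest, median, highest) in control, 0, 0.0801 and 0.158 among NASH rats and 0.3, 0.529 and 2.02 in NASH-CH. Every NASH-CH rat lay above every other rat. The fitted log2 difference was 3.43 ± 0.79 against control and 3.15 ± 0.76 against NASH, with no weight on its test because the gene passed the filter only through NASH-CH. These folds rest on very few counts in the lower groups. They were 3.02 and 2.73 without NASH-CH rat 5. The cartilage-associated fibrillar chain Col27a1 had 3.19 to 7.17 CPM in control, 2.04 to 4.01 CPM in NASH and 2.51 to 4.29 CPM in NASH-CH rats. Its log2 fold change of -0.36 in NASH-CH against control was not called (adjusted p = 0.225, limma).

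**Figure D2:**
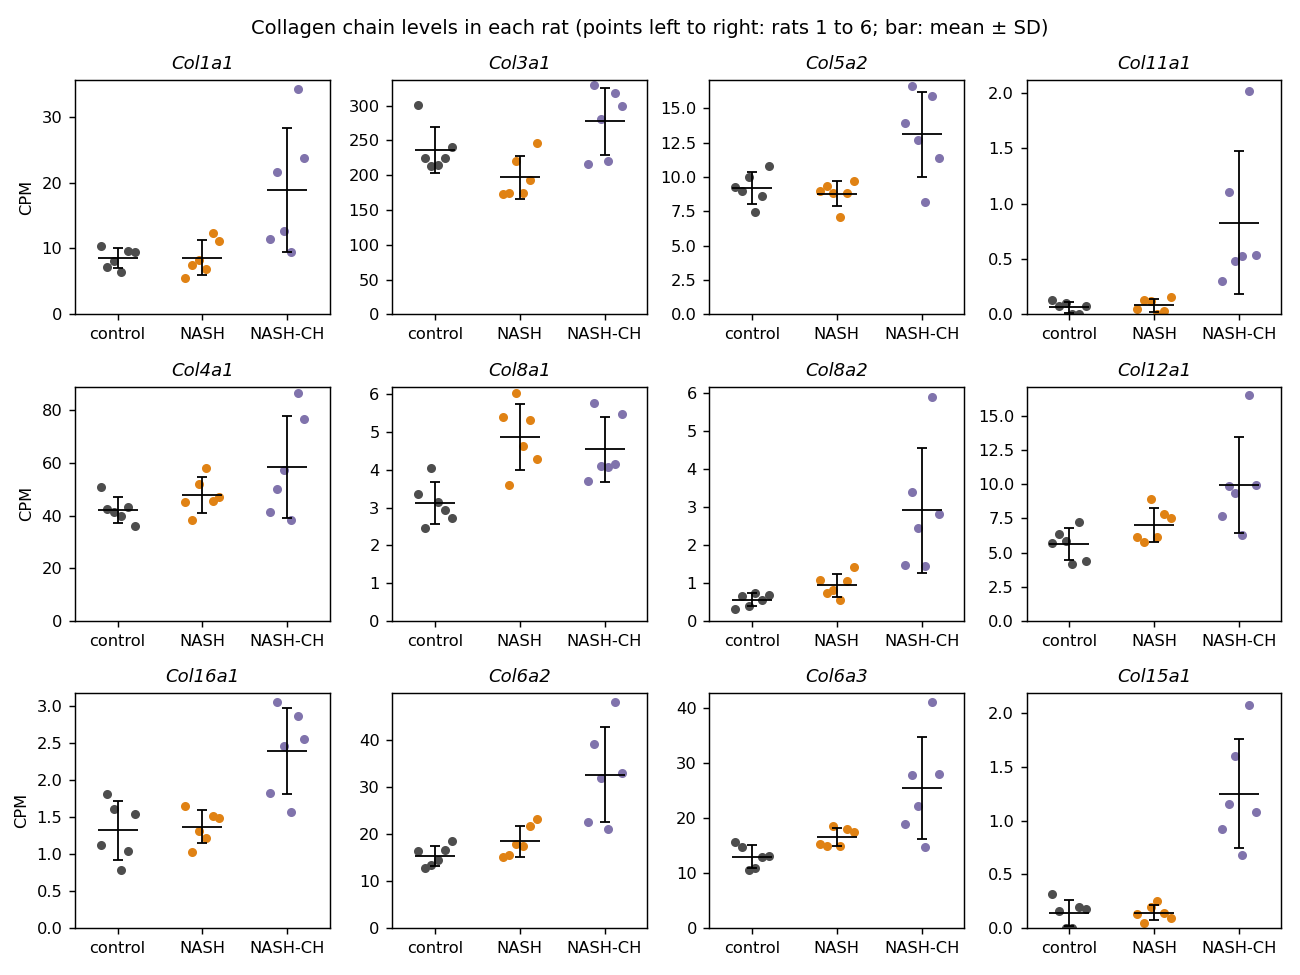
Level in CPM of 12 chains in each rat, with the mean ± SD of 6 rats per group and rats 1 to 6 from left to right. Col11a1 and Col15a1 are at or below 0.312 CPM in every control and NASH rat and at or above 0.3 CPM in every NASH-CH rat, and Col4a1 overlaps between the groups.

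Among the network chains, Col8a1 (ENSRNOG00000039668) was the one called in NASH. It had 2.47, 3.04 and 4.04 CPM (lowest, median, highest) in control, 3.6, 4.96 and 6.02 CPM in NASH and 3.7, 4.12 and 5.76 CPM in NASH-CH rats. In both models 5 of 6 rats exceeded every control rat, and the 2 models overlapped. Relative to control, the log2 fold change was 0.66 ± 0.17 in NASH (adjusted p = 0.0411, limma) and 0.55 ± 0.16 in NASH-CH (adjusted p = 0.0238, limma; 0.57 without NASH-CH rat 5). NASH-CH minus NASH was -0.11, with a 95% interval from -0.40 to 0.19. The NASH call was lost in 9 of the 18 fits that left out 1 rat. With the replicate numbers of the rats as a block, the calls against control were lost in both models.

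Col8a2 encodes the partner chain of type VIII collagen and followed another course. Its lowest, median and highest levels were 0.312, 0.601 and 0.746 CPM in control, 0.546, 0.936 and 1.42 CPM in NASH and 1.46, 2.64 and 5.89 CPM in NASH-CH rats. Each NASH-CH rat exceeded each rat of the other groups. The fitted log2 difference was 2.22 ± 0.48 against control (adjusted p = 0.00453, limma) and 1.52 ± 0.39 against NASH (adjusted p = 0.034, limma). With NASH-CH rat 5 left out, these were 1.94 and 1.23, both called.

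Col10a1, the collagen of growth plate cartilage, had at most 29 counts in any library. It ranged from 0.0829 to 0.202 CPM in control, from 0.126 to 0.771 CPM in NASH and from 0.32 to 0.478 CPM in NASH-CH rats. Its log2 fold change in NASH-CH against control was 1.07 ± 0.36 (adjusted p = 0.0472, limma). Without NASH-CH rat 5 it was also 1.07 but no longer called (adjusted p = 0.0583, limma). In NASH against control it was 0.88 ± 0.39 (adjusted p = 0.21, limma). Col10a1 reached 10 counts in 0 control, 2 NASH and 6 NASH-CH libraries, so no weight is put on its test.

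Of the basement membrane chains, Col4a1 and Col4a2 encode the common type IV network of all tissues. Col4a1 had 35.9, 41.8 and 50.8 CPM (lowest, median, highest) in control, 38.4, 46.3 and 58.2 CPM in NASH and 38.4, 53.6 and 86.4 CPM in NASH-CH rats. All groups overlapped, and NASH-CH rats 5 and 6 were the highest. The log2 fold change in NASH-CH against control was 0.39 (95% interval 0.04 to 0.74, adjusted p = 0.114, limma), and that of Col4a2 was 0.36 (0.07 to 0.65, adjusted p = 0.0854, limma). Neither was called, although the intervals do not include 0. Without NASH-CH rat 5 each difference was 0.28.

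Col4a3, Col4a4 and Col4a5 form the specialised type IV network known from kidney glomeruli. Col4a4 had 7.38, 10.5 and 11.6 CPM (lowest, median, highest) in control, 11.3, 13.7 and 16.6 CPM in NASH and 8.93, 10.8 and 12.7 CPM in NASH-CH rats. It was highest in NASH, where 4 of 6 rats exceeded every control rat. Its log2 fold change was 0.46 ± 0.13 in NASH (adjusted p = 0.0612, limma) and 0.14 ± 0.13 in NASH-CH (adjusted p = 0.462, limma). Col4a3 had a log2 fold change of 0.53 in NASH (adjusted p = 0.239, limma) and 0.43 in NASH-CH (adjusted p = 0.222, limma). Col4a5 ranged from 6.76 to 15.5 CPM in control and from 9.67 to 20.4 CPM in NASH-CH rats, a log2 fold change of 0.48 that was not called (adjusted p = 0.0998, limma).

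The FACIT chains went in both directions. Col12a1, which bridges fibrils in tendon and other dense tissue, had 4.15, 5.76 and 7.24 CPM (lowest, median, highest) in control, 5.75, 6.83 and 8.91 CPM in NASH and 6.31, 9.6 and 16.5 CPM in NASH-CH rats. It rose by 0.80 ± 0.21 on the log2 scale in NASH-CH (adjusted p = 0.0133, limma). Col16a1, a FACIT chain of several tissues, had 0.788, 1.33 and 1.81 CPM in control, 1.03, 1.4 and 1.65 CPM in NASH and 1.57, 2.51 and 3.06 CPM in NASH-CH rats. It rose by 0.85 ± 0.22 over control (adjusted p = 0.0142, limma) and by 0.78 ± 0.21 over NASH (adjusted p = 0.0422, limma). In both chains 5 of 6 NASH-CH rats exceeded every control rat. Without NASH-CH rat 5, Col12a1 had 0.64 (adjusted p = 0.0121, limma) and Col16a1 0.78 (adjusted p = 0.0219, limma) against control, and the 0.70 of Col16a1 against NASH was no longer called (adjusted p = 0.0713, limma).

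Col14a1, the FACIT chain with the most reads, overlapped between the groups, with 37.5, 40.5 and 47.5 CPM (lowest, median, highest) in control, 39.1, 46.7 and 55.4 CPM in NASH and 38.3, 47.2 and 58 CPM in NASH-CH rats. Log2 fold changes were 0.18 in NASH and 0.20 in NASH-CH against control, with upper 95% limits of 0.39 and 0.41. Col22a1, known from the junction of muscle and tendon, had 0.287, 0.459 and 0.706 CPM in control, 0.137, 0.271 and 0.462 CPM in NASH and 0.0368, 0.158 and 0.28 CPM in NASH-CH rats. All NASH-CH rats lay below all control rats, on counts of 8 to 14 per control library and 2 to 14 per deeper NASH-CH library. It fell by 1.69 ± 0.41 on the log2 scale (adjusted p = 0.00971, limma), and by 1.64 without NASH-CH rat 5 (adjusted p = 0.0181, limma). Col22a1 reached 10 counts in 3 control, 2 NASH and 2 NASH-CH libraries. It would not have passed the filter without the control group, so no weight is put on its test.

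Type VI collagen is assembled from Col6a1, Col6a2 and another chain, most often Col6a3. Col6a2 had 12.8, 15.4 and 18.5 CPM (lowest, median, highest) in control, 15.1, 17.7 and 23.1 CPM in NASH and 21.1, 32.5 and 48.2 CPM in NASH-CH rats. Every NASH-CH rat exceeded every control rat. It rose by 1.03 ± 0.18 on the log2 scale over control (adjusted p = 0.000741, limma) and by 0.77 ± 0.17 over NASH (adjusted p = 0.0158, limma). Col6a1, with 19.3 to 29.6 CPM in control and 28.4 to 57.3 CPM in NASH-CH rats, rose by 0.74 ± 0.15 (adjusted p = 0.00343, limma). Col6a3, with 10.6 to 15.7 CPM and 14.7 to 41.2 CPM, rose by 0.90 ± 0.19 (adjusted p = 0.00308, limma). All 3 rises over control were still called without NASH-CH rat 5, at 0.91 for Col6a2, 0.65 for Col6a1 and 0.75 for Col6a3, and Col6a2 against NASH was 0.64 (adjusted p = 0.0271, limma).

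The alternative partner chains Col6a5 and Col6a6 had their highest group means in NASH. Col6a6 had 1.74, 2.16 and 3.23 CPM (lowest, median, highest) in control, 2.59, 3.47 and 5.36 CPM in NASH and 2.19, 2.44 and 4.05 CPM in NASH-CH rats. The log2 fold change in NASH was 0.69 ± 0.22 (adjusted p = 0.088, limma), and NASH-CH minus NASH was -0.47 ± 0.18 (adjusted p = 0.171, limma). Col6a5 had 0.0624 to 0.61 CPM in control, 0.316 to 1.64 CPM in NASH and 0.04 to 0.917 CPM in NASH-CH rats, and no difference passed the test. It reached 10 counts in 1 control, 6 NASH and 3 NASH-CH libraries. It thus passed the filter only with NASH, and its high mean there is a description. Col6a6 and Col4a4 were also called higher in NASH by edgeR and by DESeq2, which gave 3 called chains where limma-voom gave 1.

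Of the multiplexins, Col15a1 (ENSRNOG00000060381) encodes a proteoglycan collagen of basement membrane zones around vessels and muscle. It had 0, 0.167 and 0.312 CPM (lowest, median, highest) in control, 0.0429, 0.135 and 0.252 CPM in NASH and 0.677, 1.12 and 2.08 CPM in NASH-CH rats. Its counts were 0 to 6 per library in control and NASH and 31 to 161 in NASH-CH rats, without overlap. The fitted log2 difference was 3.57 ± 0.62 against control and 3.08 ± 0.55 against NASH. This gene too passed the filter only through NASH-CH, so these are a description. They were 3.36 and 2.86 without NASH-CH rat 5. Col18a1, the endostatin precursor that hepatocytes are known to make, had 266, 369 and 427 CPM in control, 352, 384 and 425 CPM in NASH and 375, 440 and 571 CPM in NASH-CH rats. Its log2 fold change in NASH-CH against control was 0.33 ± 0.12 (adjusted p = 0.0767, limma), and 0.31 without NASH-CH rat 5.

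The transmembrane chains Col13a1 and Col25a1 are both known from neuromuscular junctions. Col13a1 had 2.93, 4.23 and 4.64 CPM (lowest, median, highest) in control, 2.01, 3.12 and 4.03 CPM in NASH and 1.58, 2.9 and 3.84 CPM in NASH-CH rats. Its log2 fold change in NASH-CH against control was -0.59 ± 0.21 (adjusted p = 0.0585, limma), and -0.41 without NASH-CH rat 5. Col25a1 had at most 23 counts per library and a log2 fold change of 0.98 in NASH-CH (adjusted p = 0.104, limma).

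**Figure D3:**
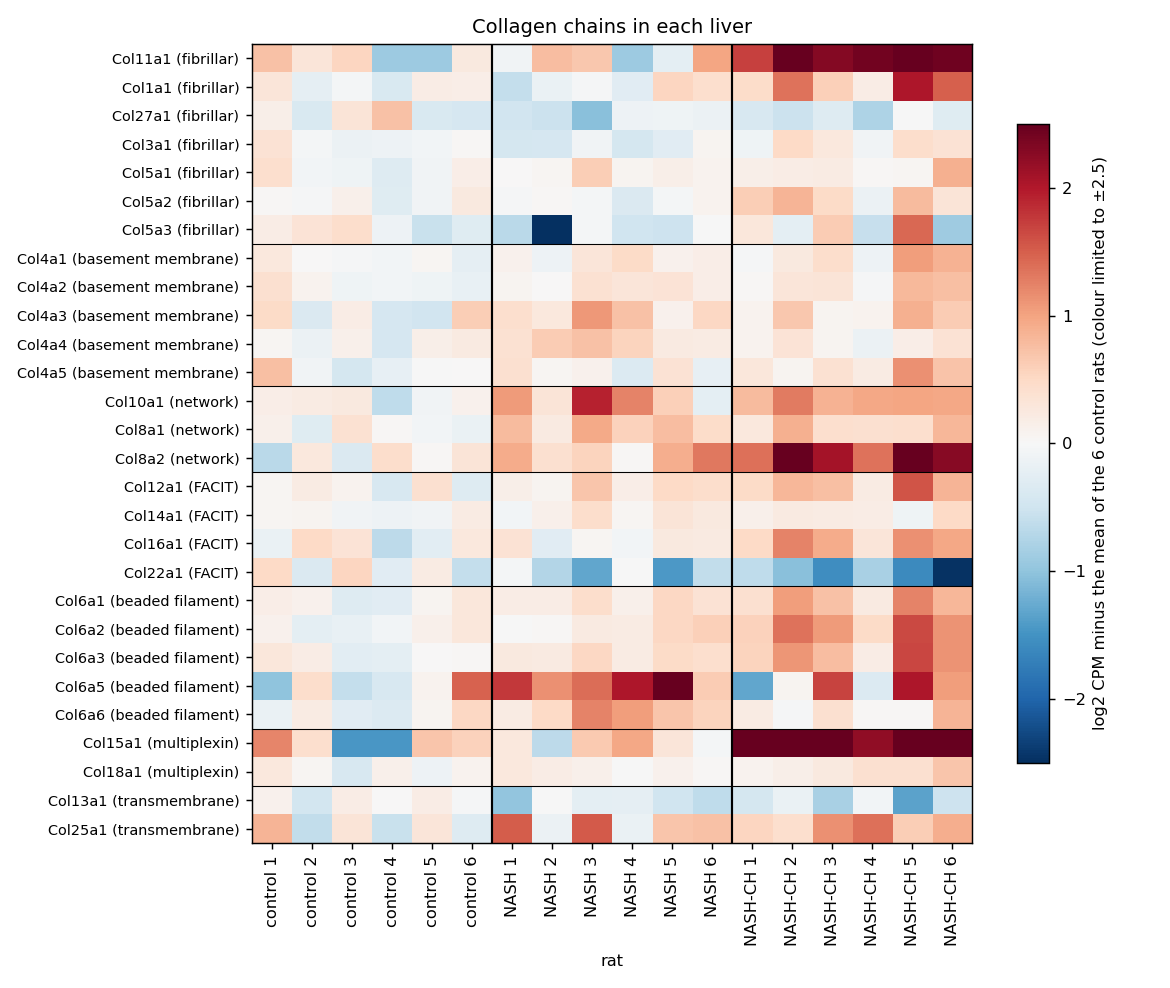
Log2 CPM of the 28 judged chains in each rat minus the mean of the 6 control rats, with the class in parentheses and colours limited to 2.5 in either direction. NASH-CH rat 5, the highest rat for 12 chains, stands out in Col1a1, Col6a1 to Col6a3, Col8a2 and Col12a1. Col4a4, Col6a5 and Col6a6 have their highest group means in NASH, and Col6a5 passed the filter only with that group.

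Ratios of 2 chains within a library do not depend on the scaling of libraries, and 3 ratios were compared in the 3 pairs of groups by a two-sided exact permutation test (9 tests, smallest p 0.00216). The ratio of Col3a1 to Col1a1 fell in NASH-CH. The lowest, median and highest numbers of Col3a1 counts per Col1a1 count were 23.4, 27.5 and 33.0 among control rats, 15.7, 24.2 and 31.0 in NASH and 9.28, 17.0 and 23.1 in NASH-CH. All 6 NASH-CH rats lay below all control rats. The log2 ratio was 4.00 ± 0.51 (SD, n = 6) in NASH-CH and 4.80 ± 0.19 in control rats, a difference of -0.80 (exact p = 0.00216, adjusted p = 0.013). The difference of NASH-CH from NASH was -0.55 (exact p = 0.0498, adjusted p = 0.112), and that of NASH from control was -0.25 (exact p = 0.141, adjusted p = 0.253). Leaving out NASH-CH rat 5, the difference from control was -0.64 (exact permutation test, adjusted p = 0.026). Over pairs of same-numbered rats, a sign-flip test of the difference from control gave an adjusted p of 0.0703. The smallest unadjusted p of that test is 0.03125.

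Col6a2 per Col6a1 rose in NASH-CH. It had 0.489, 0.641 and 0.728 (lowest, median, highest) in control, 0.542, 0.592 and 0.74 among NASH rats and 0.704, 0.77 and 0.84 in NASH-CH. The difference in log2 ratio was 0.29 from control and 0.34 from NASH (exact p = 0.00433 and adjusted p = 0.013 for each). In each comparison 5 of 6 NASH-CH rats exceeded every rat of the other group. Without NASH-CH rat 5 these were 0.267 and 0.310 (exact permutation test, adjusted p = 0.026 for each). The sign-flip test over same-numbered rats gave an adjusted p of 0.0703 for each difference with all rats. The log2 ratio had an SD of 0.201 among controls, 0.181 among NASH rats and 0.085 among NASH-CH rats. That of Col6a2 was 0.205, 0.25 and 0.456, and that of Col6a1 was 0.252, 0.159 and 0.383. The ratio thus varied less than both chains in NASH-CH rats. In control rats it varied about as much as Col6a2, and in NASH rats it varied more than Col6a1.

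Col4a2 per Col4a1, the pair that starts head to head, kept within 0.458 and 0.63 in all rats. Its median was 0.546 for control, 0.553 for NASH and 0.528 for NASH-CH rats. The group differences in log2 ratio were 0.04, -0.04 and -0.09 (exact p = 0.558, 0.539 and 0.303; adjusted p = 0.628, 0.628 and 0.455), so no difference was detected. The log2 ratio had an SD of 0.1 among controls and 0.135 in each model, while that of Col4a2 was 0.212, 0.152 and 0.349 and that of Col4a1 0.164, 0.202 and 0.472. The second head-to-head pair with both chains judged, Col4a3 and Col4a4, was looser, with an SD of the log2 ratio of 0.398 for control, 0.281 for NASH and 0.273 for NASH-CH rats. Counts per library are low for Col4a3 (28 to 84 in control rats), and the part of counting error in this was not tested.

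**Figure D4:**
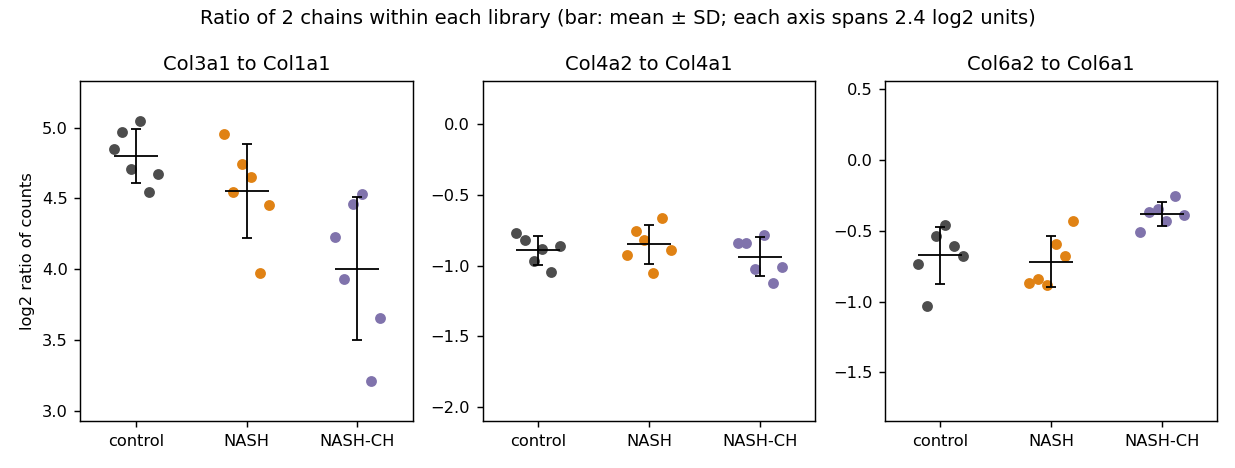
Log2 ratio of the counts of 2 chains in each rat, with the mean ± SD of 6 rats per group, on axes of equal span. Col3a1 to Col1a1 is lower in all 6 NASH-CH rats than in any control rat, Col6a2 to Col6a1 is higher in 5 of 6 NASH-CH rats, and Col4a2 to Col4a1 overlaps in all groups.

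The 16 rows that were not judged were rare or absent. The cartilage gene Col2a1 had 0 counts in all libraries, and Col9a1 and Col19a1 had at most 1 and 2 counts. Counts also stayed at or below 8 in every library for Col6a4, Col11a2, Col20a1, both rows of Col23a1, Col26a1 and Col28a1. The fibrillar chain Col24a1 reached 15 counts in NASH and 21 in NASH-CH rats. Col7a1, the anchoring fibril chain of epithelial basement membranes, had 0 to 5 counts per control or NASH library and 7 to 17 per NASH-CH library, where libraries were deeper.

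In the remaining rows the highest count was in NASH-CH rat 5. Its library was the deepest (60117806 counts), and the counts given here are not scaled for depth. Col9a2 had 51 counts in that rat and at most 3 in any other library. Col9a3 had 22 there and at most 6 elsewhere. Col17a1, a transmembrane collagen of epithelial hemidesmosomes, had 42 and at most 9, and the basement membrane chain Col4a6 had 32 and at most 13. This is the rat with the high cholangiocyte marker sum and a high mesothelial sum that was nearly all Msln. The part of these markers in the counts was not tested.

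Genes that build, cut, bind or break down collagen were followed as lists, to be read against the 8.23% of all tested genes called higher and 8.5% called lower in NASH-CH, and 1.5% and 1.44% in NASH. Of 16 tested genes of procollagen folding and hydroxylation, 4 rose in NASH-CH against control and 0 fell. These were Plod2, a lysyl hydroxylase (1.75 ± 0.42 on the log2 scale, adjusted p = 0.00875, limma), Fkbp10, Mia3 and P3h3. Of 10 genes of propeptide cleavage and crosslinking, the procollagen protease Adamts2 (1.08 ± 0.29, adjusted p = 0.0163, limma) and Pcolce, an enhancer of propeptide cleavage, rose. Of 12 tested fibril partners, 4 rose, among them the small proteoglycans Bgn (1.21 ± 0.22, adjusted p = 0.00123, limma) and Aspn, with Prelp and Thbs2. Aspn had 0 to 0.29 CPM in control, 0 to 0.759 CPM in NASH and 0.327 to 2.76 CPM in NASH-CH rats. It passed the filter only with NASH-CH, so its call carries no weight. The collagen uptake receptor Mrc2 rose among 5 receptors (1.94 ± 0.54, adjusted p = 0.0207, limma). Of 8 breakdown genes, the gelatinase Mmp2 (1.05 ± 0.21, adjusted p = 0.00214, limma) and the inhibitors Timp2 and Timp3 rose. In NASH against control, 0 of the 51 tested genes of these 5 lists were called by limma-voom. At an unadjusted p under 0.05, 7 were higher and 6 lower, and edgeR called 0 higher and 2 lower, and DESeq2 3 higher and 4 lower. With NASH-CH rat 5 left out of the shared fit, limma-voom called 2 higher and 2 lower. Over the 5 lists, 14 genes rose and 0 fell in NASH-CH against control, and without NASH-CH rat 5 it was 11 and 0.

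Markers of collagen-producing cells moved with the NASH-CH chains in part, and their counts too stand against 8.23% of all genes called higher and 8.5% lower. Among 8 stellate cell and myofibroblast markers, Des, Rgs5 and Tagln rose in NASH-CH against control, and Lrat fell. Lrat is the retinol-storing enzyme of quiescent stellate cells. Acta2 was not called (0.86 ± 0.33, adjusted p = 0.0766, limma). By edgeR and by DESeq2, 5 of the 8 were called higher and 1 lower. The summed level was 81.1 to 114 CPM in control, 98.5 to 154 CPM in NASH and 89.4 to 141 CPM in NASH-CH rats. Reln and Lrat made up most of this sum (control means of 41 and 36.3 CPM), so it says little about the rarer markers. Of 4 tested portal fibroblast markers, Fbln1 and Cd34 rose, and the sum was 6.56 to 9.35 CPM in control, 5.05 to 7.04 CPM in NASH and 9.12 to 27.5 CPM in NASH-CH rats. In NASH, where 1.5% of all genes were called higher and 1.44% lower, Rgs5 rose, and Lrat, Eln and the hepatocyte marker Apoa1 fell. Of 5 cholangiocyte markers 0 were called in NASH-CH against control (0 at an unadjusted p under 0.05, 1 by edgeR and 0 by DESeq2), with sums of 7.32 to 8.13, 5.21 to 11.7 and 4.87 to 45.3 CPM. Of 5 endothelial markers Vwf rose, and of 3 mesothelial markers Wt1 rose. Wt1 had 0 to 0.198 CPM in control, 0.134 to 0.342 CPM in NASH and 0.306 to 0.698 CPM in NASH-CH rats. At such levels it passed the filter only with NASH-CH, so its call carries no weight. Of 3 tested smooth muscle markers and the 1 tested adipocyte marker, 0 were called. The 2 skeletal muscle rows were too low to test (at most 0.353 CPM in sum). Of 5 hepatocyte markers, 3 fell in NASH-CH (Alb, Apoa1 and Ttr), and their sum was 115000 to 174000 CPM in control, 78000 to 134000 CPM in NASH and 74400 to 125000 CPM in NASH-CH rats. Without NASH-CH rat 5 the counts called in NASH-CH against control were the same for the stellate cell, hepatocyte, endothelial, mesothelial and cholangiocyte lists and 1 in place of 2 for portal fibroblasts. The part of these cell types in the collagen results was not tested.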

How the data were processed

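RNA-seq libraries were made from the livers of 6 control, 6 NASH and 6 NASH-CH rats. After adapter trimming, reads were mapped to Rnor_6.0 (STAR) and assigned to genes of Ensembl release 95 (RSEM), and the authors deposited the resulting expected counts, unscaled for depth or length. Library preparation was stranded per the labels. The labels and the study's methods name different RNA kits. Expected counts were rounded, which left totals of 19498516 to 60117806 per library. Genes with at least 10 counts in 6 or more libraries were tested (13265 genes) with TMM scaling (edgeR 4.0.16), voom and moderated statistics (limma 3.58.1, R 4.3.3) in 1 fit of all 18 rats. P-values were adjusted by the Benjamini-Hochberg method over all tested genes, with a threshold of 0.05. CPM are TMM-scaled, and log2 CPM used a prior count of 2. Intervals are 95% intervals on the degrees of freedom of the moderated statistic.

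Chain ratios used an offset of 0.5 counts and two-sided exact permutation tests (SciPy 1.17.1). Col1a2 to Col1a1 was planned but left out, since Col1a2 was not analysed here, so adjustment was over 9 tests. All judged chains were named. Full ranges were given for the chain with the most reads and the one with the largest moderated statistic in each class, and for chains called in NASH against control or NASH-CH against NASH, with other chains added after their values were seen. The members, classes and gene lists were chosen with earlier results of these data known.

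Alternatives were the quasi-likelihood test of edgeR, DESeq2 1.42.0, other scalings and filters, 2 groups alone, quality weights, a replicate block, thinned NASH-CH counts, stricter thresholds and leaving out each rat. The fits and the permutation test were tested on simulated data. No pair of libraries of a group agreed within counting error (smallest chi-square per degree of freedom 29.3). Library totals bound the counting error alone, and precision rests on the 6 rats of a group. Motifs were counted in a RefSeq promoter table of GRCr8.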

Additional observations from a re-analysis of the deposited data

Results flagged for a closer look

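In 8 of 93 groups of 6 rats examined, 1 rat stood far from the other 5, where chance gives about 1 in 20 groups. For Col3a1, control rat 1 had 301 CPM, against 213 to 240 CPM in the other control rats, and the same rat had 15.5 CPM of Col4a5, against 6.76 to 9.22 CPM. For Col5a1, NASH rat 3 had 22.2 CPM (others 14.5 to 15.9) and NASH-CH rat 6 had 26.6 CPM (others 14.7 to 16.5). Col5a2 was low in NASH rat 4 at 7.05 CPM (others 8.83 to 9.74), and Col13a1 was low in control rat 2 at 2.93 CPM (others 3.95 to 4.64). Among rare chains, Col10a1 had 0.0829 CPM in control rat 4 (others 0.149 to 0.202), and Col5a3 had 0 CPM in NASH rat 2 (others 0.178 to 0.316). The causes were not tested.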

How the results depend on the processing

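The number of chains called was 1 in NASH against control, 13 in NASH-CH against control and 8 in NASH-CH against NASH. In the first comparison it was 3 with edgeR, DESeq2, library size only or quality weights, and 0 without a filter, at an adjusted p under 0.01 or with an absolute log2 fold change of at least 1. In the second it was 21 with library size only (which moved the all-gene medians to 0.23, 0.27 and 0.04 in the 3 comparisons), 8 with at least 10 counts in every library (20 chains tested), and 7 at either stricter threshold. In the third it was 2 with library size only, 5 with at least 10 counts in every library, 1 with the 2 groups alone, 5 with quality weights, 1 at an adjusted p under 0.01 and 4 with a log2 fold change of at least 1. Settings other than these and the replicate block left each count within 1.5 times. Leaving out 1 rat gave 0 to 3, 10 to 15 and 2 to 10 chains. The first count was 0 without control rat 1, 2, 3, 4 or 5 or NASH rat 1, 3, 4 or 5, and 2 or 3 without control rat 6, NASH rat 6 or NASH-CH rat 5 or 6. The third was 2 without NASH rat 4, 3 without NASH rat 1, 2, 3 or 5 or NASH-CH rat 2, 4 without control rat 3 or 5, NASH rat 6 or NASH-CH rat 5, and 5 without control rat 1, 2 or 4 or NASH-CH rat 3 or 6. Where a count was lost, the cause was not tested.

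Rats of different groups share numbers. Deviations of same-numbered rats correlated weakly (mean 0.048, 0.070 and 0.016 in the 3 comparisons, lowest pair -0.121, 0.0273 and -0.0741), so not every pair passed 0.1 and the numbers were not taken as pairs, although 6, 5 and 3 of 12 rats were closest to their own number, where equal chances would give 2. With the replicate number as a block, 0, 11 and 7 chains were called. A sign-flip test of the ratios over pairs of rats gave an adjusted p of 0.0703 for the differences of -0.795 (Col3a1 to Col1a1, NASH-CH against control), 0.293 and 0.336 (Col6a2 to Col6a1, NASH-CH against control and NASH), where its smallest unadjusted p is 0.03125.

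Single chains that turned direction were all uncalled. In NASH-CH against NASH, Col13a1 gave 0.061 and Col27a1 -0.100 with quality weights, Col27a1 0.000 with edgeR and -0.001 with DESeq2, and Col25a1 -0.050 with the block. Col5a3 gave -0.103 in NASH-CH against control with quality weights, and Col5a2 0.166 in NASH against control with library size only. Leaving out 1 rat gave ranges across 0 for 13 chain results. In NASH-CH against NASH these were Col10a1 -0.093 to 0.443, Col13a1 -0.261 to 0.017, Col14a1 -0.050 to 0.064, Col25a1 -0.078 to 0.298, Col27a1 -0.112 to 0.092, Col4a3 -0.226 to 0.017 and Col5a1 -0.047 to 0.177. In NASH against control they were Col11a1 -0.060 to 0.656, Col16a1 -0.076 to 0.188, Col1a1 -0.105 to 0.118, Col4a5 -0.005 to 0.204 and Col5a2 -0.124 to 0.009. In NASH-CH against control, Col5a3 ran from -0.227 to 0.414. The Col6a2 to Col6a1 ratio of NASH against control ran from -0.115 to 0.001, and Col3a1 to Col1a1 of NASH-CH against NASH from -0.665 to -0.391, called only without NASH rat 5.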
